A study of Mus musculus with 16 samples.

Results

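Accessibility of chromatin around 52 genes of the transforming growth factor-beta (TGF-beta) superfamily was examined by ATAC-seq (an assay in which a transposase cuts and tags open DNA) in pancreatic tumor cells growing in the pancreas, the liver or the lungs. A peak counted as a member where the nearest protein-coding transcription start site to its midpoint, within 100 kb, belonged to one of these genes. This gave 587 of 136630 nuclear peaks, spread over 51 of the 52 genes. Inha, which encodes the inhibin alpha subunit, had no peak. Assignment was by position only, and whether a peak acts on the gene it was assigned to was not measured. A gene had up to 30 peaks with a median of 12, 30 genes had 10 or more, and Tgfb1, Acvr2b, Chrd and Gdf5 had 1 each. The median distance to the start site was 29.8 kb, and 231 member peaks lay within 20 kb.

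The cells were mKate2-positive cells sorted from KC-shSmad4 tumors. These mouse cells carry Cre under Ptf1a, which acts in the pancreatic lineage, a Rosa26 cassette for rtTA3 and mKate2, and a doxycycline-inducible hairpin RNA against Smad4 at Col1a1, in a mixed C57BL/6J and 129 background. Every group, Smad4-off groups included, shares these alleles. Smad4 was off while the host received doxycycline and returned from its own locus once the drug was stopped. Cell lines from primary tumors had been put into young adult female nude mice, which lack mature T cells, directly into the pancreas (Panc), through the spleen to reach the liver (Liv) or through the tail vein to reach the lungs (Lung). Cells were taken with Smad4 off (OFF) or 14 days after withdrawal (ON), which began at week 4 for pancreas tumors, week 5 for liver tumors and week 6 for lung tumors, so that organ, route and time of growth cannot be told apart. Which hairpin and which cell line gave each sample is not stated in the sources used here. The 16 samples, each from its own mouse, formed 6 groups, with 3 samples in each pancreas and lung group (Panc_OFF, Panc_ON, Lung_OFF, Lung_ON) and 2 in each liver group (Liv_OFF, Liv_ON).

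Ligands of this superfamily are secreted dimers that assemble pairs of type I and type II receptor kinases. TGF-betas and activins lead to phosphorylation of Smad2 and Smad3, and bone morphogenetic proteins (BMPs) and some growth and differentiation factors (GDFs) to that of Smad1, Smad5 and Smad9. Both branches share Smad4, which joins the receptor-regulated Smads on DNA. Extracellular antagonists hold ligands away from receptors, Smad6 and Smad7 block the receptors, Ski, Skil and Tgif1 repress Smad targets, and the ubiquitin ligases Smurf1 and Smurf2 mark receptors and Smads for destruction. In the pancreas the pathway restrains epithelial tumors early and is often lost in ductal cancer through deletion or mutation of Smad4.

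The DNA under the peaks that separated liver from lungs most clearly is shown first, since the values below refer back to it. The central 300 bases of 6 named peaks are given on the plus strand of GRCm38.p6 (mm10), with capitals where a script found the letters of a searched motif on either strand. Acvr1_peak3 (intron of Acvr1), Smad5_peak3 (intergenic), Smurf1_peak1 (intron of Smurf1) and Tgif1_peak7 (intron of Dlgap1) were lower in the liver, whereas Bmp3_peak7 (promoter of Bmp3) and Acvr1b_peak1 (intergenic) were higher. Peaks are numbered within a gene in order of coordinate.
Acvr1_peak3 (chr2:58505640-58505939): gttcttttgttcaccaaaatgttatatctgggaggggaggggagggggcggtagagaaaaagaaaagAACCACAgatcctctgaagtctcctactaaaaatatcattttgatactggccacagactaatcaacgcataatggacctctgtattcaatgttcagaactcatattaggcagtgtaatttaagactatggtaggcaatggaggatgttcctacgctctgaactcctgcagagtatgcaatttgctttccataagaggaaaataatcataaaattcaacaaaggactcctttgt
Smad5_peak3 (chr13:56664531-56664830): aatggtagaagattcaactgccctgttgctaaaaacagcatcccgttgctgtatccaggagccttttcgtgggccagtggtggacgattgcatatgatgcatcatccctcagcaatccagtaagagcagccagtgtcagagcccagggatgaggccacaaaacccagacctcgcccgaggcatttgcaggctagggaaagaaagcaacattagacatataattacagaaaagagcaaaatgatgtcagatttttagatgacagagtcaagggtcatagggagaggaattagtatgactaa
Smurf1_peak1 (chr5:144898548-144898847): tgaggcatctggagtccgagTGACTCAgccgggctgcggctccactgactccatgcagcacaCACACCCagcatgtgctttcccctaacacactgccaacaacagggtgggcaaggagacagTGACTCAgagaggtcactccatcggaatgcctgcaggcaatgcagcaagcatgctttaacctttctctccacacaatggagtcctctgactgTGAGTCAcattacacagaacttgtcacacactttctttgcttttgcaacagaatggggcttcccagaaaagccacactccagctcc
Tgif1_peak7 (chr17:70797194-70797493): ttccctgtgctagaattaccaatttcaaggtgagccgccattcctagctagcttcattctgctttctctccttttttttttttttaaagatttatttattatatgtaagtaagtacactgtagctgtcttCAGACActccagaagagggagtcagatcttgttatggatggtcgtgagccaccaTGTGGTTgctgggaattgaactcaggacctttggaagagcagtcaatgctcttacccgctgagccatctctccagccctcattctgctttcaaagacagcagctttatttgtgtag
Bmp3_peak7 (chr5:98855134-98855433): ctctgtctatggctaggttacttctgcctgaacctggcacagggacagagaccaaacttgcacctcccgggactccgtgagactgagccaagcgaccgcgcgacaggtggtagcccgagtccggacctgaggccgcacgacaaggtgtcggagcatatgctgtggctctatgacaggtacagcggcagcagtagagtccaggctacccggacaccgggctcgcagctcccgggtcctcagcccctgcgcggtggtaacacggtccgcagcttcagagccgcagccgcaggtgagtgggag
Acvr1b_peak1 (chr15:101161546-101161845): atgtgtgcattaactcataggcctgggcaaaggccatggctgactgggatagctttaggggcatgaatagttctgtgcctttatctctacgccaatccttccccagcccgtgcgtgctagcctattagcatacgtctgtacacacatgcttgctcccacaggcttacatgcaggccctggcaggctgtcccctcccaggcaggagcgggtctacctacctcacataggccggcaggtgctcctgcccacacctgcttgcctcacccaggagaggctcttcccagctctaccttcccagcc

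Among these windows, Smurf1_peak1 held 3 matches to the AP-1 letters TGANTCA, at bases 21, 123 and 215, and 1 to the KLF letters GGGNGTG at base 63. A match to the RUNX letters TGTGGTT stood at base 68 of Acvr1_peak3 and at base 185 of Tgif1_peak7. The SMAD letters CAGACA were found once, at base 131 of Tgif1_peak7, a window of which 71.0% is soft-masked as repeat in the assembly. No searched letters were found in the other 3 windows, which says only that these letters are not in them.

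Reads in peaks numbered 22994669 to 38218315 per sample. The peaks nearest the start sites of 7 ductal markers (Krt7, Krt8, Krt18, Krt19, Epcam, Cdh1 and Sox9) were summed. The summed normalised counts were 9419 to 12910 in pancreas samples, 18350 to 25210 in liver samples and 12560 to 16170 in lung samples. Krt19, Krt18, Sox9 and Krt7 gave most of each sum. The peak nearest Cdh1, 3843 bp away, was low at 8.43 to 66.65, and that nearest Krt8, 4859 bp away, was at 54.2 to 501. Fibroblast markers (6 genes) summed to 1747 to 2899 in pancreas samples, 896 to 1044 in liver samples and 1055 to 1423 in lung samples, with Panc_ON_3 the lowest of the pancreas samples. Col1a1, which holds the hairpin cassette in these cells, made up most of each sum. Lum, a fibroblast gene, was at 62.8 to 272 in the pancreas and at 1.87 to 33.3 elsewhere. Dcn, Pdgfra and Col1a1 were also higher in every pancreas sample than in any other. Pdgfrb (320 in Panc_ON_3, 396 in Lung_OFF_1) and Col1a2 (6.13 in Panc_ON_3, 16.3 in Liv_ON_1) overlapped. Hepatocyte markers (4 of 6 with a peak, none at Cyp2e1 or Serpina1a) summed to 724 to 819 in the liver and to 242 to 526 elsewhere, but the peak nearest Alb was at 5.37 to 27.3 in all samples. Endothelial markers summed to 1041 in Lung_OFF_1 and to 169 to 557 in the other samples, but Cdh5 alone held 697 of the 1041. Cdh5 and Vwf (133.5) were highest in Lung_OFF_1 and Tie1 (22.1) was lowest there. Pecam1, Kdr, Tek and Erg lay within the range of the other samples. Leukocyte and macrophage markers (5 of 6 with a peak, none at Lyz2) summed to 743 to 1103 in the liver and to 491 to 685 elsewhere. Cd68 was at 454 to 776 in the liver and at 178 to 401 elsewhere, and the other markers of this list overlapped. Lung epithelial markers (4 of 6, none at Sftpc or Sftpa1) summed to 265 to 511 and acinar markers to 425 to 668. In bulk samples fewer cells of a type and less open chromatin per cell cannot be told apart.

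By position, 35 of the 587 (5.96%) lay in promoters, within 1000 bp of a start site, against 9.76% of all nuclear peaks. This class was given by distance alone, also where the midpoint lay in an exon. Introns held 261 (44.5%, against 42.2%), intergenic DNA 275 (46.9%, against 45.6%) and exons 16. The start-site peak of a gene is its assigned peak nearest a start site. It is not a promoter peak, its midpoint being over 1000 bp away, for Tgfb1, Inhba, Bmp2, Bmp4, Bmp5, Gdf5, Gdf15 and Acvr2a. The same holds for Bmpr1b, Eng, Bmp1, Smad3, Smad6, Smad7, Tgif1 and Pmepa1. A peak was called different where the log2 fold change reached 0.58 in size and the adjusted p was at most 0.1 (limma with Benjamini-Hochberg adjustment over all nuclear peaks), which are the study's thresholds. All fold changes are on the scale of log2(normalised count + 1), which understates the change of low peaks.

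With Smad4 off, the question was which parts of the pathway differ in accessibility between liver and lung tumors while Smad4 is off. Activin and extracellular antagonist loci were less open in the liver. Among TGF-beta and activin receptors, Tgfbr2 and Acvr1b leaned the other way, and the remaining receptor genes of that role did not. Of the 587 member peaks, 130 were higher in Liv_OFF than in Lung_OFF and 171 were lower. Over all nuclear peaks 22.9% were higher and 26.8% lower, and the members, at 22.1% and 29.1%, were near that background. The roles moved unequally around it, and each of the 12 roles is taken in turn below with the comparison against the pancreas beside it.

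Against Panc_OFF, 143 member peaks were higher in Liv_OFF (26.2% of all peaks were) and 211 lower (32.3% of all peaks). Between Lung_OFF and Panc_OFF, 35 were higher in the lungs (6.59% of all peaks) and 66 lower (10.7% of all peaks). Both liver comparisons share the Liv_OFF samples, and each comparison's own values are given side by side. Groups did not overlap, in the sense that every liver sample lay above every lung sample, for 178 member peaks (34.9% of all peaks), and lay below for 208 (31.0% of all peaks). Without Lung_OFF_1, the sample with the highest Cdh5 peak, 111 were called higher and 144 lower. The directions given below for activin subunits, antagonists, receptors and receptor-regulated Smads held under TMM factors, quantile normalisation, GC correction and chromosome centring.

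**Figure D1:**
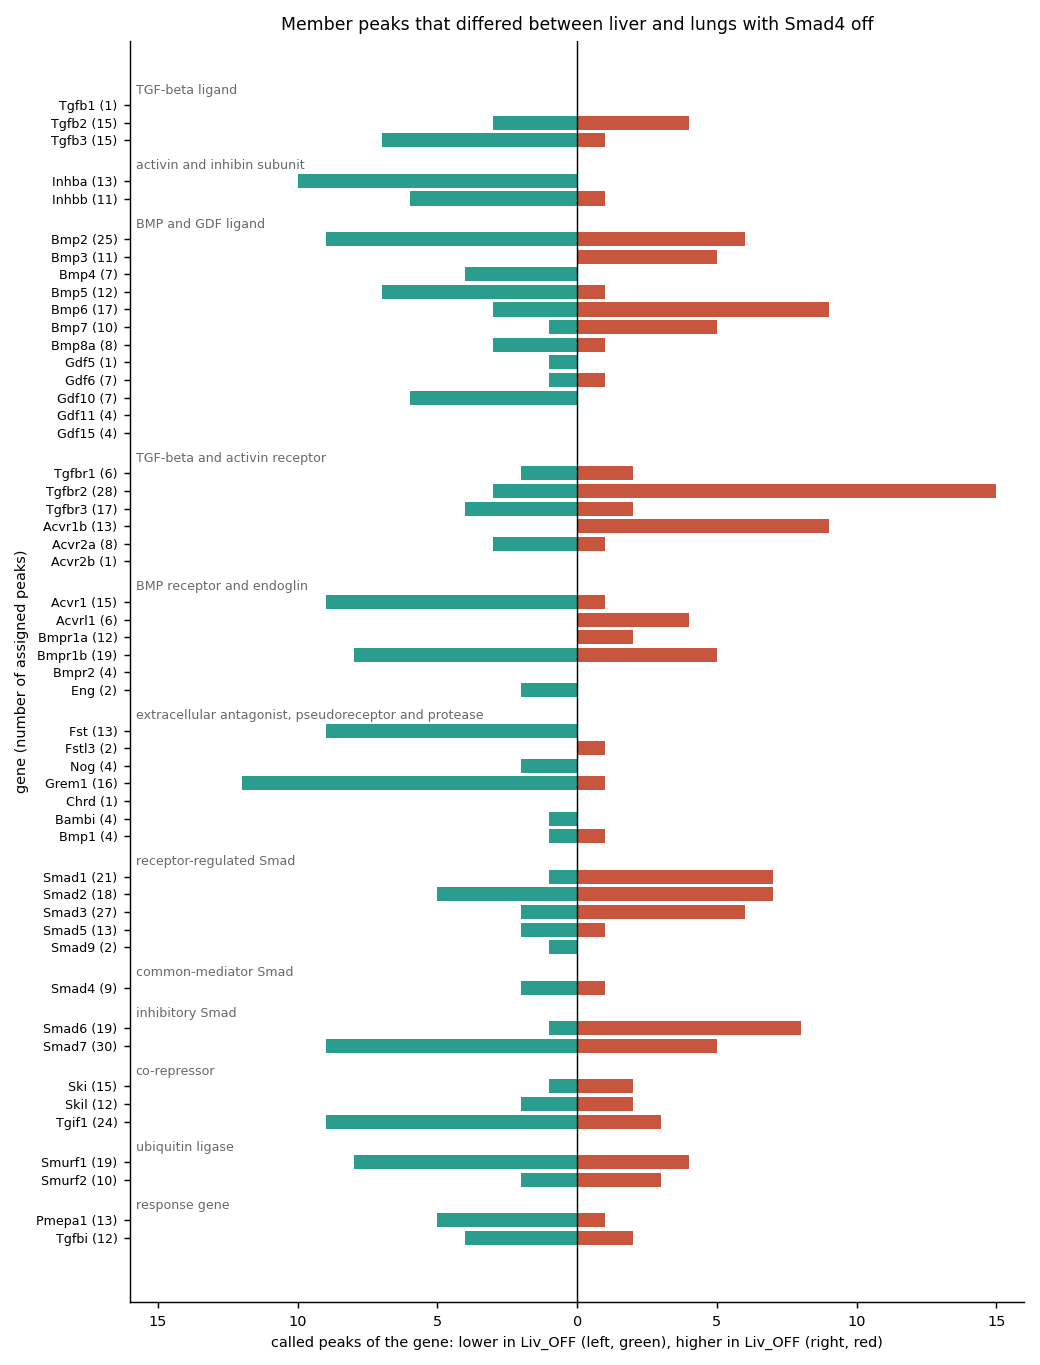
Member peaks called between Liv_OFF and Lung_OFF, by gene, as counts of peaks higher (right) and lower (left) in the liver. Tgfbr2 has 15 peaks higher and 3 lower, whereas Grem1 has 1 higher and 12 lower.

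Among the 3 TGF-beta ligands (31 peaks), 5 peaks were higher and 10 lower in Liv_OFF than in Lung_OFF, and 3 were higher and 20 lower than in Panc_OFF. Tgfb3 supplied most of the lower peaks: of its 15 peaks, 7 were lower in the liver than in the lungs, 13 lower in the liver than in the pancreas, and 9 lower in the lungs than in the pancreas. Tgfb2 was mixed between liver and lungs, with 4 of 15 peaks higher and 3 lower. With Smad4 off neither gene was called at its start site, and with Smad4 restored Tgfb2_peak13 was called lower in the lungs than in the pancreas, at -0.67. Over the 16 samples Tgfb2_peak13 ranged from 616 to 1629 and Tgfb3_peak15 from 1383 to 2375, with Panc_ON_1 the highest at both. Tgfb1, with a single peak 1507 bp from a start site, ranged from 1915 to 2672 and was called in no comparison of organs with Smad4 off.

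Tgfb3_peak5, in an intron of the neighboring gene Ttll5 77845 bp from the start site of Tgfb3 (chr12:86000136-86002257), was at 243 and 198 in Liv_OFF. It stood at 811, 778 and 845 in Panc_OFF and at 682, 480.3 and 672 in Lung_OFF. Both liver samples lay below all others, and the difference between liver and pancreas was -1.88 ± 0.19 (SE; limma adjusted p = 7.06e-06).

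The activin subunit loci were less open in the liver than in the lungs. Inhba encodes the beta A subunit of activin A, and 10 of its 13 peaks were lower and 0 higher in Liv_OFF than in Lung_OFF (median log2 fold change -2.12). Against Panc_OFF 11 were lower. The 10 did not include the start-site peak, Inhba_peak8, which ranged from 924 to 1709 over all samples and differed by -0.08 between liver and lungs. Other peaks within 5 Mb of Inhba on chromosome 13 had a median difference of -0.62 in the same comparison, a smaller step in the same direction. Of the 11 peaks of Inhbb, the beta B subunit, 6 were lower and 1 higher. Its start-site peak held 721 ± 40.9 in Panc_OFF (SD, n = 3), 523 ± 64.2 in Liv_OFF (SD, n = 2) and 736 ± 97.7 in Lung_OFF (SD, n = 3), a difference of -0.49 between liver and lungs that did not reach the fold threshold.

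The BMP and GDF ligands (12 genes, 113 peaks) split by gene, with 28 peaks higher and 35 lower in Liv_OFF than in Lung_OFF, which became 33 and 29 with GC correction and 28 and 27 with quantile normalisation. Bmp3, Bmp6 and Bmp7 lay on the liver side. Bmp3 had 5 of 11 peaks higher and 0 lower, Bmp6 had 9 of 17 higher and 3 lower, and Bmp7 had 5 of 10 higher and 1 lower. On the other side were Gdf10, with 6 of 7 peaks lower, Bmp5, with 7 of 12 lower and 1 higher, and Bmp4, with 4 of 7 lower. Bmp2 was mixed, at 6 higher and 9 lower of 25, and so was Bmp8a, at 1 and 3 of 8. Gdf6 had 1 of 7 in each direction, and none of 4 peaks was called for Gdf11 or for Gdf15, a stress-induced ligand.

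Bmp3, a ligand that can oppose other BMPs, gave the clearest start site. Bmp3_peak7 (chr5:98854222-98856345), whose center is printed above, was at 847 and 991 in Liv_OFF, at 153, 225 and 172 in Lung_OFF and at 125, 152 and 158 in Panc_OFF. Liver samples were all higher than the rest, by 2.34 ± 0.25 over the lungs (limma adjusted p = 1.98e-05) and by 2.66 ± 0.25 over the pancreas (adjusted p = 5.35e-06). With Smad4 restored it was at 603 and 1051 in the liver and at 90.4 to 158 in the other organs, so that the order held in different mice.

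Start sites of Bmp6 and Bmp8a were also higher in the liver than in both other organs, with smaller steps. Bmp6_peak7 held 439 ± 47.7 in Liv_OFF, 204 ± 37.9 in Lung_OFF and 224 ± 23.1 in Panc_OFF (SD), and Bmp8a_peak2 held 1762 ± 15.8, 1131 ± 140 and 802 ± 64.2. The call of Bmp8a over the lungs was lost under all 4 other scalings. The start-site peak of Bmp7 was low, at 58.8 ± 27.2 in Liv_OFF, 30.0 ± 13.8 in Lung_OFF and 17.1 ± 8.36 in Panc_OFF, and with Smad4 off was called against the pancreas but not against the lungs. Those of Gdf10 and Bmp5, which were called lower in the liver than in the lungs, held few reads as well, at 4.48 ± 2.39 and 26.5 ± 4.15 for Gdf10 and 3.94 ± 0.337 and 26.6 ± 17.3 for Bmp5. The single peak of Gdf5, 4201 bp from a start site, was at 20.4 ± 13.1 in Liv_OFF, 118 ± 47.2 in Lung_OFF and 142 ± 10.3 in Panc_OFF. No other BMP or GDF start-site peak was called between Liv_OFF and Lung_OFF, and those of Bmp2, Bmp4 and Gdf15 are not promoter peaks. Over the 16 samples Bmp2 ranged from 633 to 1160, Bmp4 from 588 to 1083 and Gdf11 from 229.5 to 443. Gdf6 ranged from 37.6 to 94.3 and Gdf15 from 1410 to 3293. Of these, Gdf15 was called higher in Liv_OFF than in Panc_OFF.

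**Figure D2:**
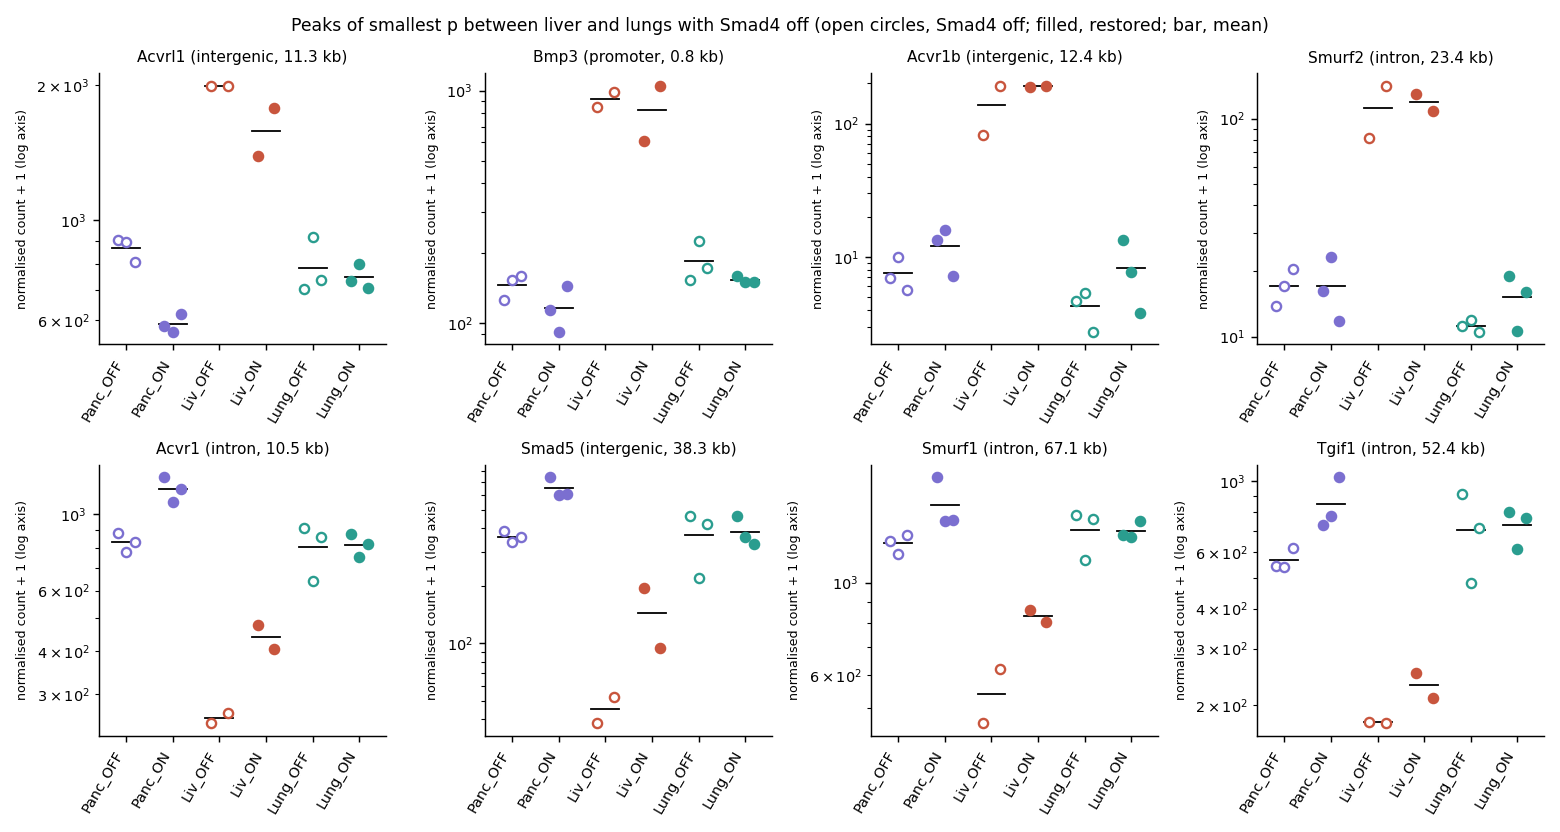
Normalised count + 1 on a log axis for the 8 named peaks that differed between Liv_OFF and Lung_OFF, in the 16 samples by organ, with open points for Smad4 off, filled points for Smad4 restored and a bar at the mean of the value + 1. Bmp3_peak7 is at 847 and 991 in Liv_OFF against 153 to 225 in Lung_OFF, and Acvr1_peak3 shows the opposite order.

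The TGF-beta and activin receptors (6 genes, 73 peaks) had 29 peaks higher and 12 lower in Liv_OFF than in Lung_OFF. Most of the higher ones were at Tgfbr2 and Acvr1b. Against Panc_OFF 26 were higher and 25 lower. Tgfbr2, the type II receptor that binds TGF-beta, had 15 of 28 peaks higher and 3 lower. Acvr1b, the main type I receptor for activin, had 9 of 13 higher and 0 lower (median log2 fold change 1.03). Other peaks within 5 Mb of Acvr1b had a median difference of 0.34, and those near Tgfbr2 one of -0.06. Tgfbr3, the co-receptor betaglycan, had 2 of 17 higher and 4 lower, Acvr2a had 1 of 8 higher and 3 lower, and Tgfbr1, the type I receptor for TGF-beta, had 2 of 6 in each direction.

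Acvr1b_peak1 (chr15:101161410-101161980), 12372 bp upstream of the gene, was nearly closed outside the liver. It was at 81.5 and 191 in Liv_OFF and at 186 and 192 in Liv_ON, at 1.72 to 4.35 in Lung_OFF, and at 4.63 to 8.93 in Panc_OFF. Every liver sample lay above every other sample, and the difference between Liv_OFF and Lung_OFF was 4.94 ± 0.57 (limma adjusted p = 2.93e-05).

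At their start sites the receptors differed little. Acvr1b_peak7 held 1031 ± 23.7 in Liv_OFF, 686 ± 76.3 in Lung_OFF and 689.8 ± 37.9 in Panc_OFF, and Tgfbr2_peak11 held 2235 ± 21.1, 1486 ± 171 and 1486 ± 21.4 (SD). Both differences from the lungs, 0.59 and 0.60, were called but stood barely past the fold threshold, and both calls were lost under TMM factors, quantile normalisation and GC correction. Tgfbr3_peak14 was lower in the liver (382 ± 36.5) than in the lungs (552 ± 50.0) and the pancreas (584 ± 66.1), and was called against the pancreas, at -0.61. Tgfbr1 ranged from 1536 to 2756, Acvr2a from 822 to 1488 and Acvr2b from 1070 to 1742 over the 16 samples, without a call.

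BMP receptors and endoglin (6 genes, 58 peaks) had 12 peaks higher and 19 lower in Liv_OFF than in Lung_OFF, and again the genes parted. Acvr1, a type I receptor of the BMP branch, had 9 of 15 peaks lower and 1 higher, and Bmpr1b, another, had 8 of 19 lower and 5 higher. Acvrl1, a type I receptor known from endothelium, had 4 of 6 higher and 0 lower, and Bmpr1a had 2 of 12 higher. Eng, an endothelial co-receptor, had both of its peaks lower, and none of the 4 peaks of Bmpr2 was called. Endothelial marker sums were 169 and 170.0 in Liv_OFF and 284 to 1041 in Lung_OFF, the opposite direction to Acvrl1 and the same as Eng. Singly, Pecam1, Cdh5, Tek and Vwf were lower in Liv_OFF, Tie1 was higher, and Kdr and Erg overlapped. The part of endothelial cells was not tested.

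Acvr1_peak3 (chr2:58504883-58506696), in an intron of Acvr1, was at 246 and 263 in Liv_OFF, at 911, 639 and 861 in Lung_OFF and at 884, 774 and 828 in Panc_OFF. Liver samples lay below all of these, and the log2 difference from the lungs was -1.64 ± 0.15 (limma adjusted p = 9.06e-06). Its promoter was at 1378 ± 232, 1363 ± 23.8 and 1662 ± 66.5 (SD) in Liv_OFF, Lung_OFF and Panc_OFF, and neither difference from the pancreas, -0.28 and -0.29, reached the fold threshold. Acvrl1_peak5 (chr15:101144686-101146213), 11316 bp downstream of the start of Acvrl1, was at 1985 and 1994 in Liv_OFF, at 699.6, 914 and 736 in Lung_OFF and at 902, 892 and 806 in Panc_OFF. It was higher in both liver samples than in all others, by 1.35 ± 0.13 over the lungs (adjusted p = 1.11e-05) and 1.20 ± 0.13 over the pancreas (adjusted p = 9.76e-06). Acvrl1 and Acvr1b are neighbors on chromosome 15, and their peaks share that stretch.

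Elsewhere in this role, start-site peaks of Bmpr1a ranged from 954 to 1700 and those of Bmpr2 from 1385 to 1879 without a call. The peak nearest Bmpr1b, 21841 bp from a start site, was at 71.5 ± 42.0 in Liv_OFF, 34.1 ± 8.42 in Lung_OFF and 27.5 ± 10.7 in Panc_OFF. Start-site peaks were called higher in the liver than in the lungs for Acvrl1 (119 ± 16.7 against 78.3 ± 1.67, lost under TMM factors and GC correction) and lower for Eng (36.8 ± 10.7 against 100 ± 36.4).

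Extracellular antagonists and processing enzymes (7 genes, 44 peaks) had a median of -1.51 between liver and lungs, the lowest of the 12 roles, with activin subunits next at -1.36 and below them under GC correction and quantile normalisation. In Liv_OFF 3 peaks were higher and 25 lower than in Lung_OFF. Grem1, a BMP antagonist, had 12 of 16 peaks lower and 1 higher, with a median of -2.12. Fst, the activin-binding follistatin, had 9 of 13 lower and 0 higher, with a median of -1.62, and Nog, the BMP antagonist noggin, had 2 of 4 lower. Against Panc_OFF the counts for Grem1 were 2 higher and 13 lower, for Fst 1 and 8, and for Nog 0 and 3. Other peaks within 5 Mb had a median liver to lung difference of -0.29 at Grem1 and -0.21 at Fst. Fibroblast marker sums moved the same way between organs (896 and 911 in Liv_OFF, 1055 to 1423 in Lung_OFF, 1932 to 2556 in Panc_OFF). Most of each sum was Col1a1, where the hairpin cassette sits (728 and 780 in Liv_OFF, 909 to 986 in Lung_OFF). Between Liv_OFF and Lung_OFF, Col1a1 and Pdgfrb were lower, Lum and Col1a2 were higher, and Pdgfra and Dcn overlapped. Each of these markers was lower in Liv_OFF than in Panc_OFF. The part of fibroblasts in these counts was not tested.

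Among antagonist promoters, those of Grem1 and Fst were lower in the liver as well. Grem1_peak10 held 215 ± 38.8 in Liv_OFF, 803 ± 330 in Lung_OFF and 956 ± 118 in Panc_OFF (SD), a called difference of -1.82 between liver and lungs. Fst_peak4 held 560 ± 27.6, 1063 ± 87.4 and 878 ± 72.7, a called difference of -0.92. Fstl3, a follistatin relative, was called lower in the liver (483 ± 32.1) than in the pancreas (775 ± 91.8), at -0.68, but not than in the lungs (533 ± 114). With Smad4 off no call was made at the start sites of Nog (176 to 376 over the 16 samples), the BMP antagonist Chrd (456 to 656), the decoy receptor Bambi (607 to 1279) or Bmp1 (981 to 2151), a protease that cleaves Chrd. With Smad4 restored Nog_peak4 was called lower in the liver than in the lungs (-0.69), Bambi_peak4 lower in the lungs than in the pancreas (-0.67) and Bmp1_peak4 lower in the liver than in the pancreas (-0.72).

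**Figure D3:**
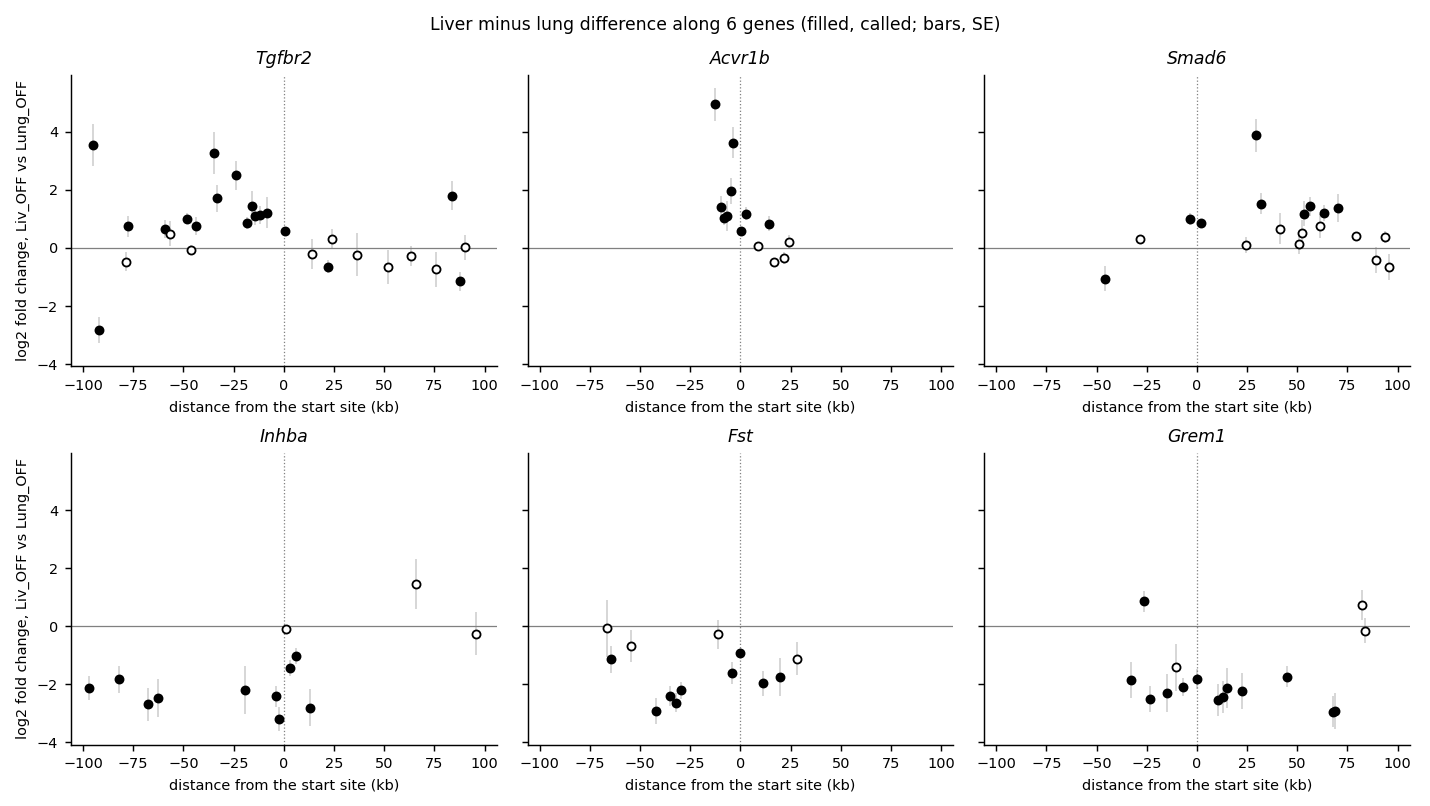
Log2 fold change of Liv_OFF over Lung_OFF for each peak of Tgfbr2, Acvr1b, Smad6, Inhba, Fst and Grem1, against distance from the start site in kb (negative is upstream), with bars for the SE and filled points for called peaks; the 6 genes were chosen after their values were seen. Called peaks lie below 0 for all 10 of Inhba, all 9 of Fst and 12 of 13 of Grem1, and above 0 for all 9 of Acvr1b, 15 of 18 of Tgfbr2 and 8 of 9 of Smad6.

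Receptor-regulated Smads (5 genes, 81 peaks) had 21 peaks higher and 11 lower in Liv_OFF than in Lung_OFF. Smad1 had 7 of 21 higher and 1 lower, Smad2 had 7 of 18 and 5, and Smad3 had 6 of 27 and 2. Smad5 had 1 of 13 higher and 2 lower, and of the pair of peaks of Smad9 1 was lower. Only Smad2 was called at its start site, at 2342 ± 270 in Liv_OFF against 1507 ± 124 in Lung_OFF (SD; 0.63, a call lost under TMM factors, quantile normalisation and GC correction), while start-site peaks of Smad1 ranged from 984 to 1432, Smad3 from 2369 to 3948, Smad5 from 900.0 to 1457 and Smad9 from 94.8 to 193.

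Smad5_peak3 (chr13:56664244-56665117), 38330 bp upstream of Smad5, was at 37.0 and 51.5 in Liv_OFF, at 461, 217 and 419.6 in Lung_OFF and at 387, 338 and 359 in Panc_OFF. Liver samples lay far below the rest, by -2.96 ± 0.31 against the lungs (limma adjusted p = 1.81e-05) and -3.02 ± 0.31 against the pancreas (adjusted p = 8.11e-06). Smad1_peak6 (chr8:79370514-79376274), in an intron of Smad1, went the other way, at 2366 and 1977 in Liv_OFF, 793, 729.8 and 684 in Panc_OFF and 979 to 1224 in Lung_OFF. It exceeded the pancreas by 1.56 ± 0.14 (adjusted p = 5.06e-06). Smad2_peak14 (chr18:76257161-76258129) was at 308 and 318 in Liv_OFF, at 18.8, 26.8 and 19.4 in Panc_OFF and at 36.8, 98.9 and 59.5 in Lung_OFF. The organs did not overlap at this peak, and liver exceeded pancreas by 3.81 ± 0.40 (adjusted p = 8.22e-06).

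The 9 peaks of Smad4 itself had 1 called higher and 2 lower in Liv_OFF than in Lung_OFF, and its promoter peak ranged from 683 to 1119 over the 16 samples. No Smad4 peak was called on restoration in any organ. The hairpin acts on the RNA, so this locus gives no check of the Smad4 labels.

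Among inhibitory Smads (49 peaks) 13 peaks were higher and 10 lower in Liv_OFF than in Lung_OFF, which became 10 and 13 with GC correction, and the pair divided. Smad6, which blocks the BMP branch, had 8 of 19 peaks higher and 1 lower, and its start-site peak held 7802 ± 72.9 in Liv_OFF, 4330 ± 944 in Lung_OFF and 4725 ± 249.8 in Panc_OFF (SD; 0.87 over the lungs, a call lost under quantile normalisation and GC correction). Smad7, which blocks both branches, had 5 of 30 higher and 9 lower. The peak nearest its start site, 4038 bp away, held 576 ± 121 in Liv_OFF, 775 ± 99.9 in Lung_OFF and 781 ± 44.3 in Panc_OFF, without a call.

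Co-repressors (51 peaks) had 7 peaks higher and 12 lower, and ubiquitin ligases (29 peaks) 7 higher and 10 lower. Tgif1 had 3 of 24 higher and 9 lower, Ski 2 of 15 and 1, Skil 2 of 12 and 2, Smurf1 4 of 19 and 8, and Smurf2 3 of 10 and 2. At the start sites, Ski (2287 ± 303 in Liv_OFF, 1511 ± 158 in Lung_OFF) and Tgif1 (9949 ± 289 and 6610 ± 621) were called higher in the liver, at 0.60 and 0.59, calls lost under each of those scalings and under chromosome centring. Those of Skil (2653 to 4255 over the 16 samples), Smurf1 (1105 to 1530) and Smurf2 (885 to 1612) were not called.

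Distal peaks of these regulators gave larger steps. Smurf1_peak1 (chr5:144897997-144899397), the intronic peak with 3 AP-1 matches, was at 458 and 619 in Liv_OFF, at 1449, 1131 and 1422 in Lung_OFF and at 1254, 1168 and 1300 in Panc_OFF. Both liver samples lay lowest, and the difference from the lungs was -1.32 ± 0.14 (limma adjusted p = 2.06e-05). Tgif1_peak7 (chr17:70796814-70797872) was at 176 and 174 in Liv_OFF and at 911, 481 and 713 in Lung_OFF, a difference of -1.95 ± 0.22 (adjusted p = 2.43e-05). In the other direction, Smurf2_peak3 (chr11:106896540-106897284), intronic to Smurf2, was at 80.2 and 141 in Liv_OFF and at 9.48 to 10.9 in Lung_OFF, with a difference of 3.27 ± 0.40 (adjusted p = 4.07e-05).

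Response genes (25 peaks) had 3 peaks higher and 9 lower in Liv_OFF than in Lung_OFF. Pmepa1, a membrane protein induced by TGF-beta that dampens the pathway, had 1 of 13 higher and 5 lower, and Tgfbi, a matrix protein named for its induction by TGF-beta, had 2 of 12 higher and 4 lower. Start-site peaks were uncalled with Smad4 off, with Pmepa1_peak2 at 254 to 776 and Tgfbi_peak6 at 147 to 404 over the 16 samples, and Pmepa1_peak2 was called higher in Liv_ON than in Panc_ON (0.78). Tgfbi_peak4 (chr13:56599570-56602104), 8749 bp upstream of Tgfbi, was at 223 and 209 in Liv_OFF, 871, 532 and 1024 in Lung_OFF and 1172, 1302 and 1336 in Panc_OFF. The organs did not overlap, and liver lay below pancreas by -2.55 ± 0.24 (limma adjusted p = 5.47e-06). This peak and Smad5_peak3 come from the same stretch of chromosome 13.

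Over the 51 start-site peaks, of which 35 were promoter peaks, 10 were higher and 6 lower in Liv_OFF than in Lung_OFF, 11 and 6 against Panc_OFF, and 1 and 0 between Lung_OFF and Panc_OFF. Of the 16 calls between liver and lungs, 7 were kept under every alternative (Bmp3, Bmp5, Bmp6, Eng, Fst, Gdf5 and Grem1) and 8 were lost under at least 1 scaling. The single call of the last was Gdf10, at 26.5 ± 4.15 in the lungs and 4.36 ± 3.65 in the pancreas (SD). Among the 35 promoter peaks 8 were higher and 3 lower in the liver than in the lungs. The 13340 promoter peaks over the whole table leaned likewise, with 2782 higher and 768 lower. Intergenic member peaks had 64 higher and 87 lower and introns 55 and 73. The shares called over all intergenic peaks, all intronic peaks and the start-site peaks of all genes were not computed. Promoters made up 6.15% of the higher and 1.75% of the lower member peaks, against 8.89% and 2.10% over all peaks called in those directions. When only peaks within 20 kb of the start site were kept, the count was 115 called, 63 of them higher, against 130 of 301 among all members. The share over all nuclear peaks at that distance was not computed.

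Lung and pancreas tumors differed at fewer member peaks, and the largest steps were at peaks that were low outside the pancreas. Tgfb2_peak10 (chr1:186695137-186696081), an intron of Tgfb2, was at 114, 169.7 and 173 in Panc_OFF and at 11.97, 4.35 and 10.3 in Lung_OFF, a difference of -4.03 ± 0.52 (limma adjusted p = 3.78e-04). Tgfb3_peak7 (chr12:86010662-86011120) was at 67.5, 73.2 and 138 in Panc_OFF against 1.84, 4.35 and 7.75, at -4.13 ± 0.55 (adjusted p = 4.34e-04). All 3 pancreas samples exceeded every lung sample at both.

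A distal peak of Inhba and an upstream peak of Smurf2 behaved likewise. Inhba_peak13 (chr13:16109784-16110386), 95610 bp past the start, was at 53.0, 60.7 and 66.7 in Panc_OFF and at 0.92, 1.09 and 1.72 in Lung_OFF, with a fitted difference of -4.78 ± 0.66 (limma adjusted p = 5.66e-04). Values near 1 in the lungs stand for 1 or 2 reads, so that this fitted size depends on the pseudocount. Smurf2_peak8 (chr11:106930487-106930948) was at 78.6, 62.5 and 124 against 3.68, 4.35 and 6.89, at -3.88 ± 0.54 (adjusted p = 5.79e-04).

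At all 4 of these peaks Panc_ON_3 was the lowest of the 6 pancreas samples, at 70.5, 42.9, 23.8 and 52.9, where Panc_ON_1 was at 211, 152, 88.0 and 204. The promoters of the fibroblast genes Lum and Dcn were also lowest in Panc_ON_3 among pancreas samples, with Panc_ON_3 at 62.8 and 49.8 and Panc_ON_1 at 185 and 197, and both were low in the other organs. The part of fibroblasts in these 4 peaks was not tested. Tgfb3 as a locus had 9 of 15 peaks lower in the lungs than in the pancreas and 0 higher.

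**Figure D4:**
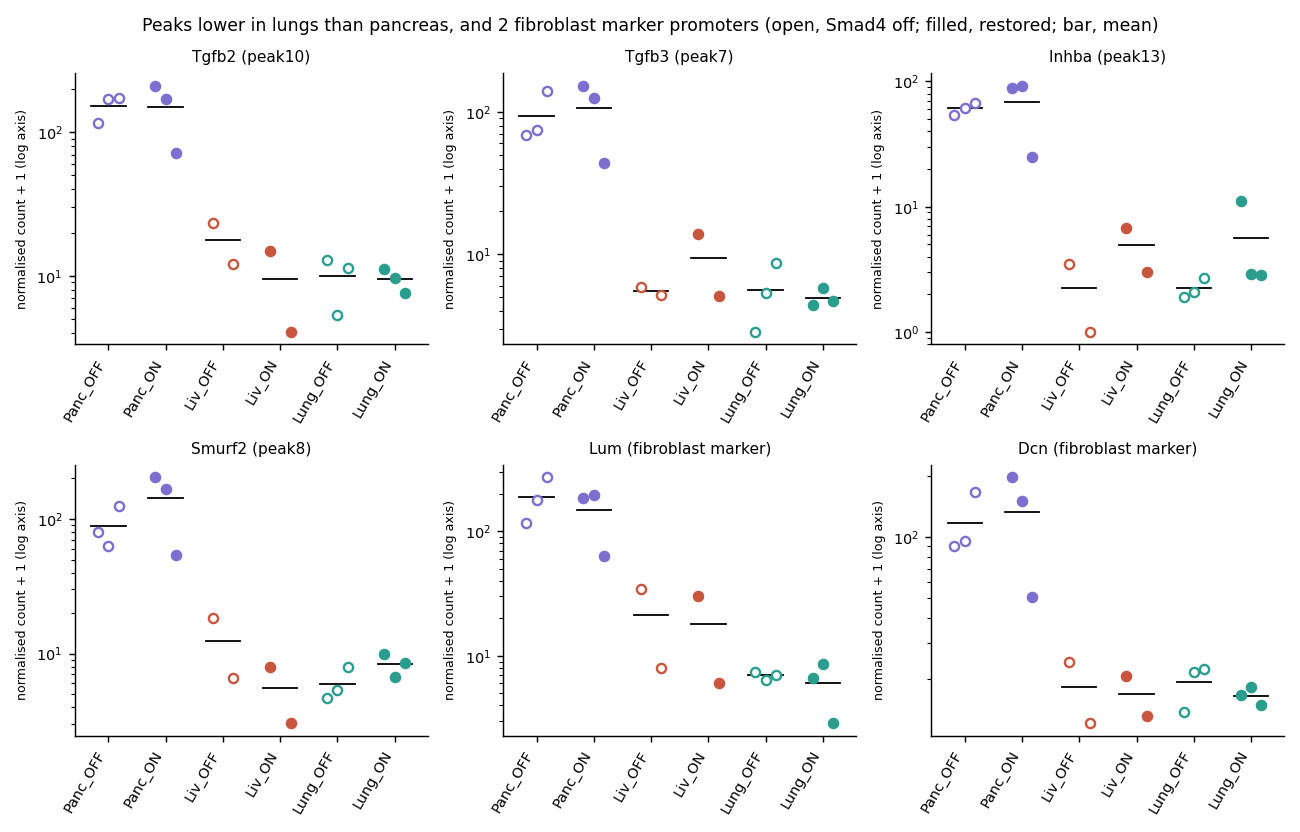
Normalised count + 1 on a log axis for the 4 member peaks lower in Lung_OFF than Panc_OFF by the rule for named peaks, and for the start-site peaks of the fibroblast genes Lum and Dcn, in the 16 samples, with open points for Smad4 off and filled points for Smad4 restored. Panc_ON_3 is the lowest pancreas sample in each of the 4 member peaks and at Lum and Dcn, and liver and lung samples lie below the pancreas.

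Peaks higher in the lungs than in the pancreas were more modest. Smad7_peak9 (chr18:75322092-75322753), 45107 bp upstream of Smad7, was at 180.4, 78.2 and 152 in Lung_OFF and at 27.3, 22.3 and 30.6 in Panc_OFF, a difference of 2.24 ± 0.38 (limma adjusted p = 0.00175). Gdf10 had 6 of 7 peaks higher in the lungs, with Gdf10_peak1 (chr14:33823723-33826361) at 336, 406 and 245 against 172, 40.2 and 50.0 (2.18 ± 0.43, adjusted p = 0.00417). The groups did not overlap at either peak, although Panc_OFF_1 came closest at Gdf10_peak1. Fst, for which 4 of 13 peaks were higher and 0 lower, and Smad2, at 5 and 1 of 18, also lay on the lung side.

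Smaller called steps were seen at Tgif1_peak17 (chr17:70864790-70865687), at 158, 158 and 143 in Lung_OFF and 74.3, 75.0 and 54.6 in Panc_OFF (1.17 ± 0.22, limma adjusted p = 0.00337). Smad2_peak6 (chr18:76200107-76201028) was at 180.4, 261 and 355 against 119.6, 121 and 106 (1.14 ± 0.24, adjusted p = 0.00660). The count of 101 calls between Lung_OFF and Panc_OFF was 60 without Panc_OFF_2 and 50 without Panc_OFF_3, and the named peaks were called each time.

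Differences between organs were looked for again with Smad4 restored, in other mice. Between Liv_ON and Lung_ON, 114 member peaks were higher (17.6% of all peaks) and 108 lower (18.2%), a count of 222 that was 89 without Liv_ON_2. Of the 130 peaks higher in the liver with Smad4 off, 99 (76.2%) were also higher with Smad4 on, where they made up 86.8% of the calls. For peaks lower in the liver the overlap was 93, which was 54.4% of those called off and 86.1% of those called on. Over all nuclear peaks the corresponding shares were 67.5% and 87.9% for higher and 56.9% and 83.8% for lower. No member peak was called in opposite directions.

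Liv_ON against Panc_ON gave 150 higher (27.1% of all peaks) and 198 lower (32.2%), and Lung_ON against Panc_ON gave 79 higher (12.8%) and 89 lower (14.9%). Of the 35 peaks higher in Lung_OFF than Panc_OFF, 18 (51.4%) were also higher between Lung_ON and Panc_ON. The 168 calls between Lung_ON and Panc_ON were 105 without Panc_ON_1 and 193 without Panc_ON_3, the sample low in fibroblast genes. By gene, Inhba had 8 of 13 peaks lower in Liv_ON than Lung_ON, Grem1 had 9 of 16, Fst 7 of 13 and Acvr1 7 of 15. Bmp7 had 7 of 10 higher, Tgfbr2 11 of 28 and Acvr1b 7 of 13.

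Restoration of Smad4 asks how the loci of its own pathway respond within an organ. In the pancreas 2 member peaks were higher in Panc_ON than Panc_OFF and 17 lower. These are 0.341% and 2.90% of the members, near the 0.364% and 3.06% of all peaks. The lower peaks included 2 each of Tgfbr2, Tgfbr3, Acvr1b, Smad1, Smad3, Smad7 and Skil and 1 each of Bmp2, Bmp6 and Smad6. TGF-beta and activin receptors held 6 of the 17.

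Tgfbr3_peak17 (chr5:107303307-107304903), 14476 bp upstream of Tgfbr3, was at 192, 276 and 253 in Panc_OFF and at 92.5, 74.3 and 119.6 in Panc_ON. All 3 restored samples lay below, by -1.33 ± 0.22 (limma adjusted p = 0.0124), and this call was made under every one of the 28 alternatives. In the liver the same peak was at 273 and 227 off and 135 and 144 on, and in the lungs at 322, 369.5 and 326 off and 212, 340.3 and 320.1 on.

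Peaks upstream of Tgfbr2 and Acvr1b showed smaller losses. Tgfbr2_peak14 (chr9:116188696-116190237) was at 252, 258 and 200.0 in Panc_OFF and at 96.9, 92.8 and 98.9 in Panc_ON, a difference of -1.28 ± 0.28 (limma adjusted p = 0.0333). Acvr1b_peak3 (chr15:101165563-101166397) was at 285, 265 and 229 against 140.5, 95.3 and 172 (-0.97 ± 0.22, adjusted p = 0.0357). At neither did the states overlap, but both calls were lost without Panc_OFF_1, Panc_OFF_2 or Panc_ON_2.

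The remaining named peaks of the pancreas rested on every sample. Smad7_peak27 (chr18:75449460-75450416), in an intron of Ctif, was at 137, 172 and 149 in Panc_OFF and at 88.0, 76.8 and 70.5 in Panc_ON (-0.95 ± 0.24, limma adjusted p = 0.0559). Bmp3_peak10 (chr5:98890528-98891081) rose from 16.2, 15.2 and 24.1 to 40.0, 40.9 and 61.3 (1.31 ± 0.35, adjusted p = 0.0679), and Fst_peak10 (chr13:114500758-114501558) from 46.1, 52.7 and 53.7 to 89.8, 114 and 251 (1.41 ± 0.40, adjusted p = 0.0858). Smad7_peak27 and Bmp3_peak10 were not called once any pancreas sample was left out, and Fst_peak10 lost its call in 11 of 28 alternatives.

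The pancreas count as a whole depended on single samples. Its 19 calls became 1 without Panc_OFF_2, 3 without Panc_OFF_1 or Panc_ON_2, 7 without Panc_OFF_3 or Panc_ON_1, 11 without Liv_OFF_1 or Liv_OFF_2 and 12 without Lung_ON_2, while 36 were called without Lung_OFF_1 and 30 without Lung_OFF_2. A block for the replicate number in the lungs, where the numbers were only taken to pair samples, gave 15 higher and 24 lower. Quantile normalisation gave 10 and 27.

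In the liver restoration raised few member peaks. It called 4 higher and 1 lower, against 0.462% and 0.0886% of all peaks, and none of the 5 was called under all alternatives. Pmepa1_peak13 (chr2:173356725-173357826), 80742 bp upstream of Pmepa1, had the smallest p. It was at 272 and 298 in Liv_OFF and at 618 and 669 in Liv_ON, a difference of 1.17 ± 0.21 (limma adjusted p = 0.0430). Both restored samples lay above, and the call was lost in 4 of 28 alternatives, among them those without Liv_OFF_1 or Liv_ON_1 and the replicate block in every organ.

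Of the other 3 higher peaks, all had been named above for being low in Liv_OFF, and these comparisons share the Liv_OFF samples. Acvr1_peak3 was at 475 and 404 in Liv_ON (0.78 ± 0.16 over Liv_OFF, limma adjusted p = 0.0695), still below the 639 to 911 of Lung_OFF. Smad5_peak3 was at 193 and 93.4 (1.60 ± 0.34, adjusted p = 0.0769), and Tgfbi_peak4 at 626 and 395 (1.20 ± 0.27, adjusted p = 0.0877). Bmpr1b_peak12 (chr3:142114010-142115085), in an intron of Bmpr1b, fell from 207 and 135 to 31.4 and 18.3 (-2.75 ± 0.57, adjusted p = 0.0693).

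The liver count was 0 without Liv_OFF_1 or Liv_ON_1, 1 without any of the Panc_OFF samples or Lung_ON_2, 2 without Lung_ON_3 and 3 without Panc_ON_1 or Panc_ON_2. It rose to 8 without Liv_OFF_2, 11 without Panc_ON_3, 13 without Liv_ON_2, 14 without Lung_OFF_1 and 20 without Lung_OFF_2. TMM factors gave 9 higher and 1 lower and quantile normalisation 2 and 1. With the block in the lungs it was 10 and 1, and with the block in every organ 1 and 0.

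In the lungs no member peak passed limma's thresholds on restoration, where 0.00146% of all peaks were higher and 0.0022% lower. An unadjusted p under 0.05 was reached by 42 members (7.16%, against 7.11% of all peaks). On recovered reads edgeR called 0 and DESeq2 called 4, all lower. The effect of restoration was not called different between organs at any member peak by limma or edgeR. Unadjusted p was under 0.05 at 36 member peaks between liver and lungs, 24 between liver and pancreas and 59 between lungs and pancreas, against 5.25%, 3.95% and 10.96% of all peaks, and DESeq2 called 0, 1 and 4. In the last of these 15 were called without Lung_OFF_2, and 7 with the block in the lungs. A missing call does not show that the organs responded alike.

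Averaged over the 3 organs, restoration raised 32 member peaks (5.45%, against 3.61% of all peaks) and lowered 19 (3.24%, against 3.0%). In both directions together 51 members (8.69%) and 9043 of the 136630 nuclear peaks were called. The median over all members was 0.06, and over all peaks 0.01. Activin, antagonist and response loci held 5, 7 and 6 of the 32 higher calls, and the other 14 were spread over 8 roles. By gene, higher calls included 5 of 13 peaks of Inhba, 5 of 13 of Pmepa1, 3 of 13 of Fst, 3 of 4 of Nog, 3 of 24 of Tgif1 and 2 of 15 of Tgfb3, with 0 lower except for 1 of Tgif1. Lower calls included Tgfbr3 (3 of 17), Acvr1b (3 of 13), and Tgfbr2, Smad6, Bmp2 and Bmpr1b (2 each), none of which had a higher call. TGF-beta and activin receptors had 1 higher and 8 lower of 73, whereas antagonists had 7 higher and 0 lower of 44.

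Of the higher calls, 25 of 32 were intergenic, as were 46.9% of member peaks and 45.6% of all nuclear peaks, called or not. The intergenic share of all peaks called higher was not computed. None of the 32 was in a promoter, where 1.05% of all peaks called higher lay. Within 20 kb of a start site the calls were 8 higher and 11 lower, and the share over all nuclear peaks at that distance was not computed. Among start-site peaks the only call was the peak nearest Bmpr1b, at -1.02, with few reads (16.5 ± 6.84 in Liv_ON and 71.5 ± 42.0 in Liv_OFF, SD), and the call was lost in 12 of 27 alternatives.

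**Figure D5:**
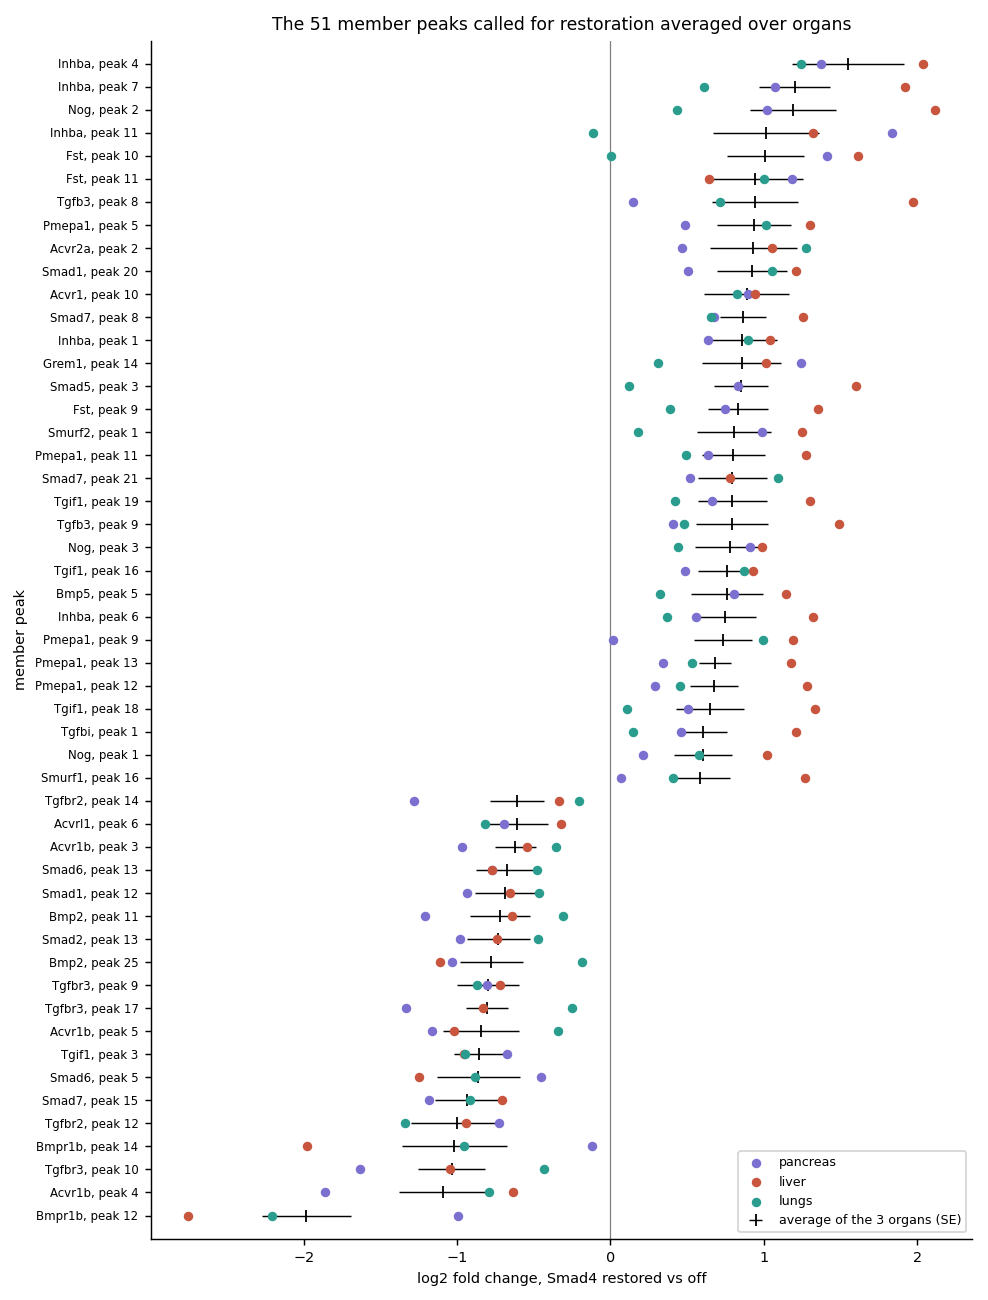
Log2 fold change of Smad4 restored over off for the 51 member peaks called in the average over organs, 1 row a peak, with colored points for pancreas, liver and lungs and a black tick with its SE for the average. The 32 higher peaks run from Inhba_peak4 at 1.55 down to Smurf1_peak16 at 0.58, and Bmpr1b_peak12 is lowest at -1.98.

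Bmpr1b_peak12 had the smallest p of the average. It was at 29.9, 20.6 and 17.6 in Panc_OFF and 12.4, 17.3 and 5.37 in Panc_ON, at 207 and 135 in Liv_OFF and 31.4 and 18.3 in Liv_ON, and at 17.5, 52.2 and 37.0 in Lung_OFF and 8.98, 4.79 and 5.60 in Lung_ON. Restored samples lay below in each organ, by -1.98 ± 0.29 on average (limma adjusted p = 0.00341).

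Smad7_peak8 (chr18:75319080-75320072), 47953 bp upstream of the inhibitory Smad7, was the rising counterpart. It was at 269.9, 288 and 234 in Panc_OFF and 392, 482 and 396 in Panc_ON, at 56.8 and 71.1 in Liv_OFF and 167 and 140.2 in Liv_ON, and at 336, 144 and 262 in Lung_OFF and 389, 365 and 349.9 in Lung_ON. The states did not overlap in any organ, and the average was 0.86 ± 0.15 (limma adjusted p = 0.00768).

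Tgif1_peak3 (chr17:70762225-70763129), in an intron of Dlgap1, fell. It was at 119.6, 132 and 123 in Panc_OFF and 61.3, 65.6 and 117 in Panc_ON, at 131 and 117 in Liv_OFF and 62.9 and 64.0 in Liv_ON, and at 309, 196 and 341 in Lung_OFF and 166, 130.4 and 132 in Lung_ON. Panc_ON_3 came close to the Smad4-off samples, and the average was -0.86 ± 0.16 (limma adjusted p = 0.0104). These 3 peaks were called under all 27 alternatives tried for the average.

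A pair of low peaks completed the named set. Acvr2a_peak2 (chr2:48776459-48776874), 37443 bp upstream of the type II activin receptor gene Acvr2a, averaged 0.93 ± 0.28 (limma adjusted p = 0.0656), with 27.3 to 34.0 off and 34.7 to 56.7 on for the pancreas, 1.39 and 3.70 off and 5.08 and 6.99 on for the liver, and 4.31 to 12.9 off and 13.1 to 32.6 on for the lungs. Smad1_peak12 (chr8:79414959-79415230) averaged -0.68 ± 0.20 (adjusted p = 0.0533), from 23.1 to 36.6 off to 13.6 to 16.9 on for the pancreas, from 35.8 and 43.2 to 31.4 and 19.3 for the liver, and from 19.3 to 25.9 down to 15.7 to 17.2 for the lungs. Their calls were lost in 8 and 5 of 27 alternatives. The 51 calls of the average became 23 without Liv_OFF_1 or Liv_ON_1 and 31 without Lung_OFF_2, and 82 without Lung_OFF_1, the sample with the highest Cdh5 peak.

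Searched letters were found in member peaks at shares within 5 percentage points of those over all peaks. In the central 300 bases, AP-1 letters stood in 32.4% of member peaks and 34.1% of all peaks, RUNX letters in 11.1% and 10.9%, and SMAD letters CAGACA in 30.8% and 26.1%. Letters for BMP SMADs (GGCGCC) stood in 4.43% of members, KLF letters in 23.9%, FOX letters (TGTTTAC) in 6.99%, HNF1 letters (GTTAATNA) in 1.87% and TEAD letters (ACATTCC) in 5.11%, against 3.74%, 21.5%, 6.16%, 3.87% and 6.77% of all peaks in that order. Member peaks lower in the liver than in the lungs held AP-1 letters in 72 of 171 (42.1%) and those higher in 27 of 130 (20.8%), and all nuclear peaks called lower and higher did so in 53.4% and 20.0%. SMAD letters stood in 49 of 130 higher (37.7%) and 43 of 171 lower (25.1%) member peaks, against 25.1% and 28.6% of all peaks called in those directions. Among peaks higher on restoration over the organs, 16 of 32 members (50.0%) held SMAD letters, as did 34.2% of all such peaks, and 12 of 32 (37.5%) held AP-1 letters, against 61.3%. A match is a description of letters and not of binding.

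The remaining genes of the pathway were described by a second list of 60, of which 54 had 504 peaks. Between Liv_OFF and Lung_OFF 93 of these were higher (18.45%, against 22.9% of all peaks) and 155 lower (30.75%, against 26.8%). Between Liv_OFF and Panc_OFF 109 were higher (21.6%, against 26.2%) and 216 lower (42.9%, against 32.3%). In Lung_OFF 22 were higher than in Panc_OFF (4.4%, against 6.59%) and 89 lower (17.7%, against 10.7%). Ltbp1, which anchors latent TGF-beta in the matrix, had 5 of 49 peaks higher and 18 lower in the liver than in the lungs, and the antagonist Bmper had 0 of 23 and 12. Fstl1, a secreted follistatin-like protein, had 0 of 9 and 7, while Nedd4l, a ubiquitin ligase acting on Smads, had 23 of 51 and 10. The BMP co-receptor Rgma had 15 of 19 lower and 0 higher in the lungs than in the pancreas. On restoration the pancreas had 7 higher (1.39%, against 0.364% of all peaks) and 12 lower (2.38%, against 3.06%). The liver had 4 higher (0.794%, against 0.462%) and 0 lower (against 0.0886%). No such peak was called in the lungs by limma, where 31 had an unadjusted p under 0.05 (6.15%, against 7.11% of all peaks). Over the organs 26 were higher (5.16%, against 3.61% of all peaks) and 12 lower (2.38%, against 3.0%), and Ltbp1 supplied 13 of the 26.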

How the data were processed

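ATAC-seq was read from a table of 16 samples over one peak atlas, in which the authors merged peaks closer than 500 bp after calling them with MACS2 at P ≤ 0.001 and leaving out blacklisted regions. Submitters' processing notes name FastQC 0.11.5, Trim Galore, cutadapt, Bowtie2, MACS2, featureCounts, bedtools and DESeq2, and no transposase shift, duplicate or read filter is given in the sources used here. The deposited signal values are read counts per peak that the authors divided by a size factor per sample. Steps in the values gave back whole reads for 100% of values (tolerance 0.01), 22994669 to 38218315 per sample, and these limit precision at low peaks. Columns name doxycycline status, read as Smad4 off (on drug) or restored, and day 15 in the names of lung columns stands against 14 in the labels. A mitochondrial row (1.43 to 3.56% of reads) was left out. An allele that all groups share and a gene of the second list are not reported here by name.

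Peaks (median 589 bp) were assigned to GENCODE vM21 basic start sites, with names read as 1-based coordinates of GRCm38. If they are 0-based, starts move by 1 base. The 52 members, the list of 60 other pathway genes, 7 marker lists and 8 motifs were chosen with earlier results of these data known. Tests were fitted in limma 3.58.1 (R 4.3.3) on log2(value + 1), all 6 groups together and without a filter on low values, with Benjamini-Hochberg adjustment over 136630 nuclear peaks and the study's thresholds of 0.58 and 0.1. The method was tested on simulated data. The comparisons were organ against organ at a given Smad4 state, Smad4 restored against off per organ and averaged over organs, and the difference in restoration between organs. On recovered reads edgeR 4.0.16 called 67887 of all peaks between Liv_OFF and Lung_OFF, DESeq2 1.42.0 called 67825 and limma 67891. Restoration in the pancreas gave 4408, 9294 and 4675 in that order. Other alternatives changed the scaling, pseudocount, low filter, thresholds, samples, distance limit and blocks.

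Replicate pairs of a group differed by 3.73 to 22.1 in chi-square per degree of freedom, so no library was taken as a copy. Same-numbered OFF and ON samples deviated together in the lungs (correlations 0.491, 0.124 and 0.214), where the numbers were taken to pair samples by this check alone, and not in the pancreas (-0.33, 0.0271 and -0.33) or the liver (0.0834). Every member is given by its number of peaks and its start-site peak, which is the assigned peak nearest a start site. Peaks named in full are, for each comparison of organs with Smad4 off and for restoration, those called without overlap of the groups, ranked by p, up to 4 higher and 4 lower and 1 per gene. Sequences come from the 6 of smallest p among those named between Liv_OFF and Lung_OFF or for the average of restoration that lie off chromosome 18 and touch no UTR.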

Additional observations from a re-analysis of the deposited data

How the results depend on the processing

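Counts of called member peaks are given as an alternative against the reported one. Within 20 kb of a start site the organ comparisons gave 115, 133 and 28 with Smad4 off (liver and lungs, liver and pancreas, lungs and pancreas) and 91, 133 and 58 with Smad4 restored, and restoration gave 9 in the pancreas, 2 in the liver and 19 averaged, as fewer peaks were counted. Stricter thresholds of 1 and 0.05 gave 59 (Lung_OFF, Panc_OFF), 146 (Liv_ON, Lung_ON), 90 (Lung_ON, Panc_ON), 4 (pancreas), 1 (liver) and 7 (averaged). Restoration in the pancreas, 19 as reported, gave 37 with quantile normalisation, 29 with the replicate block in every organ and 39 by DESeq2. It gave 39 with the block in the lungs alone, where the numbers were only taken to pair samples. Restoration in the liver, 5 as reported, gave 3 with a pseudocount of 10, with quantile normalisation or with the 2 groups fitted alone, 10 with TMM factors, 1 with the replicate block in every organ, 11 with the block in the lungs, 0 with the block and GC correction together, 2 by edgeR and 25 by DESeq2. The lungs gave 4 by DESeq2. The difference in restoration gave 1 between liver and pancreas by DESeq2, and between lungs and pancreas 1 with the replicate block in every organ, also with GC correction, 7 with the block in the lungs and 4 by DESeq2. The replicate block moved no other count by over 1.5 times. The cause of these changes was not tested.

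With each sample left out in turn, counts ran from 50 to 112 (Lung_OFF, Panc_OFF), 89 to 238 (Liv_ON, Lung_ON), 105 to 193 (Lung_ON, Panc_ON), 1 to 36 (pancreas restoration), 0 to 20 (liver restoration), 23 to 82 (averaged) and 0 to 15 (lungs and pancreas, difference in restoration). Counts between Liv_OFF and Lung_OFF ran from 238 to 326, between Liv_OFF and Panc_OFF from 296 to 362 and between Liv_ON and Panc_ON from 249 to 363. Over all alternatives the calls of named peaks were kept 1013 times and lost 102 times, and none turned direction while called. Every one of the 24 calls named between organs was kept in its 28 alternatives, against 1 of 6 for the pancreas, 0 of 5 for the liver and 3 of 5 for the average. The largest shift of the median of all peaks under another scaling was 0.11, for quantile normalisation between Lung_ON and Panc_ON.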

Other observations

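Several loci of the pathway held peaks that differed in opposite directions between liver and lungs. With Smad4 off, Bmp2, which encodes a BMP ligand, had 6 peaks higher and 9 lower in the liver, Smad7 had 5 and 9, Bmpr1b had 5 and 8, Smad2 had 7 and 5 and Smurf1 had 4 and 8.

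Beyond the member genes, Itgb8, part of an integrin that frees TGF-beta from its latent complex, had 5 of 16 peaks lower and 0 higher in the liver than in the lungs, and 12 lower than in the pancreas. Lrrc32, which holds latent TGF-beta on the cell surface, had 1 of 17 higher and 13 lower than in the pancreas. Windows of which at least 50% was soft-masked as repeat made up 4.94% of member peaks and 7.59% of all peaks.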
